A study of Mus musculus with 15 samples.

Results

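H19, Igf2, Igf2r, Meg3, Rian, Mirg, Dlk1, Peg3, Mest and Plagl1 are imprinted growth genes and the noncoding RNAs transcribed beside them, and their RNA was followed here while mouse embryonic fibroblasts (MEFs) were turned into induced myogenic progenitor cells (iMPCs). The 10 genes were chosen by name, with earlier results of these data known. The kallisto estimates of all their transcripts were summed per gene. All 10 were among the 19331 genes that passed the filter on low counts, of 35675 genes with a matched transcript. Poly-A RNA of 15 cultures was sequenced, from 3 MEF lines in each of 5 conditions, and each library held 29393872 to 41885769 estimated counts.

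Each line came from a single mouse embryo at mid-gestation, carried a Pax7-nGFP reporter transgene on a mixed C57BL6;DBA2 background, and was used in every condition, so replicates 1 to 3 are lines 1 to 3. Cells of 4 conditions were transfected 4 times with synthetic mRNA encoding the muscle transcription factor MYOD in iMPC medium with B18R, a decoy receptor for interferon. For +MyoD+F/R/C+CP the medium held the JAK inhibitor CP690550 besides 3 compounds, forskolin (F), which raises cAMP, RepSox (R), an inhibitor of the TGF-β receptor, and CHIR99210 (C), a GSK3 inhibitor. For +MyoD+F/R/C+SP the JNK inhibitor SP600125 took the place of CP690550. The F/R/C compounds were given alone in +MyoD+F/R/C, and no compound was given in +MyoD. These cultures were collected on day 10. MEFs were untransfected cells in iMPC medium, and B18R is not given for them. They are labelled day 10, but the deposited data name them day 0, so the transfections, B18R and time in culture cannot be told apart in a comparison with MEFs. Each condition has n = 3 lines. The libraries hold whole cultures, in which fewer cells of a type and less RNA per cell cannot be told apart, and the parental allele of a transcript was not measured.

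An imprinted gene is expressed mainly from the allele inherited from one parent. H19 and Igf2 lie side by side, share enhancers and are controlled by one differentially methylated region, with H19 expressed from the maternal allele and Igf2, a growth factor of fetal muscle, from the paternal one. Igf2r encodes the receptor that carries IGF2 to the lysosome. In the Dlk1-Dio3 domain, Dlk1, a Notch-related transmembrane protein of the embryo, is paternally expressed, whereas the noncoding Meg3, Rian and Mirg are maternally expressed. Peg3 and Plagl1 encode zinc-finger proteins, Mest encodes a hydrolase-like protein, and all 3 are paternally expressed. Several of these genes are active in fetal muscle and decline after birth, and IGF2 made by myoblasts promotes their differentiation.

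On GRCm38, H19 lies at chr7:142575529-142578143 and Igf2 at chr7:142650766-142666816, both on the minus strand, and Peg3 is elsewhere on the same chromosome at chr7:6703892-6730431. Dlk1 (chr12:109452823-109463336), Meg3 (chr12:109541001-109571726), Rian (chr12:109603940-109661716) and Mirg (chr12:109729764-109749460) follow each other on the plus strand. Igf2r is at chr17:12682406-12769664, Mest at chr6:30723547-30748465 and Plagl1 at chr10:13060504-13131694.

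Of the 10 genes, 6 enclose miRNA genes on their own strand, 22 in all with 41 mature miRNAs, and 14 of the 22 lie within Mirg. Poly-A libraries measure the host transcript and not the mature miRNA, so the sequences show which small RNAs the host levels below could bear on. The sequences were taken from RefSeq on GRCm38.p6, and the seed, bases 2 to 8, is in capitals. The set holds both arms of the miRNA in H19, which had the highest level outside MEFs, 1 or both arms from Igf2, Mest, Meg3 and Rian, and the pair in Mirg that has 1 seed in common.
miR-675-5p in H19: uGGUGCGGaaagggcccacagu
miR-675-3p in H19: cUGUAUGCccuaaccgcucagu
miR-483-5p in Igf2: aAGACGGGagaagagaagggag
miR-335-5p in Mest: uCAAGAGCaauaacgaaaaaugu
miR-335-3p in Mest: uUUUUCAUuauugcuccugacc
miR-770-5p in Meg3: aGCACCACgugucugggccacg
miR-370-3p in Rian: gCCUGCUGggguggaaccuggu
miR-453 in Mirg: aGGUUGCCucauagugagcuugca
miR-496a-5p in Mirg: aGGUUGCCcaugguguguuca
Among the 41 mature miRNAs there were 40 seeds, and miR-453 and miR-496a-5p were the only pair with the same one.

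Markers of the cultures were summed as TPM, a level per transcript length. The 9 fibroblast genes summed to 6912 to 15580 TPM in the 12 transfected libraries, the lowest of which was +MyoD line 1, against 1609 to 2022 TPM in MEFs. Over the 9 cultures that had F/R/C, the 11 skeletal muscle genes gave 4016 to 9066 TPM, against 1294 to 2061 TPM in +MyoD and 44.3 to 66.1 TPM in MEFs. The 7 satellite cell genes gave 70.5 to 181 TPM with F/R/C, 6.60 to 21.8 TPM in +MyoD and 1.03 to 1.34 TPM in MEFs. Muscle and satellite cell markers were thus highest in the cultures with F/R/C. The 8 proliferation genes summed to 175 to 386 TPM with F/R/C, to 92.9 to 132 TPM in +MyoD and to 906 to 1024 TPM in MEFs. The 5 adipocyte genes reached 249 to 334 TPM in +MyoD+F/R/C+SP, against 7.60 to 9.91 TPM in MEFs. They gave 118 to 154 TPM in +MyoD+F/R/C+CP, 69.2 to 134 TPM in +MyoD+F/R/C and 10.9 to 79.9 TPM in +MyoD. The 5 hepatocyte genes, from a tissue in which several of the 10 genes are high in the fetus, stayed at 14.1 TPM or below in every library. Among them Alb was nevertheless called higher in +MyoD+F/R/C than in MEFs. Neuron genes gave 45.2 to 171 TPM in the transfected libraries, against 25.1 to 34.0 TPM in MEFs, epithelial genes 16.8 to 53.2 against 84.1 to 104 TPM, and chondrocyte genes 4.84 to 28.8 against 35.0 to 69.6 TPM. Endothelial and macrophage genes stayed at 16.1 TPM or below. No listed marker was at 0 in every library. Their part in the results below was not tested.

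Together the 10 genes took 0.397 to 1.72% of all TPM in the 12 transfected libraries, against 0.174 to 0.215% in MEFs. The lowest transfected value belonged to +MyoD line 1. In TPM it was the lowest +MyoD line for every gene but Rian, where it was the highest, and Peg3. The highest +MyoD line was line 2 for H19, Igf2, Meg3, Mirg and Dlk1. The effect of leaving out line 1 is given for each gene in the counts over the set. Levels between genes are compared in TPM, and levels between conditions in CPM, counts scaled to a fixed library size after TMM normalisation.

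**Figure D1:**
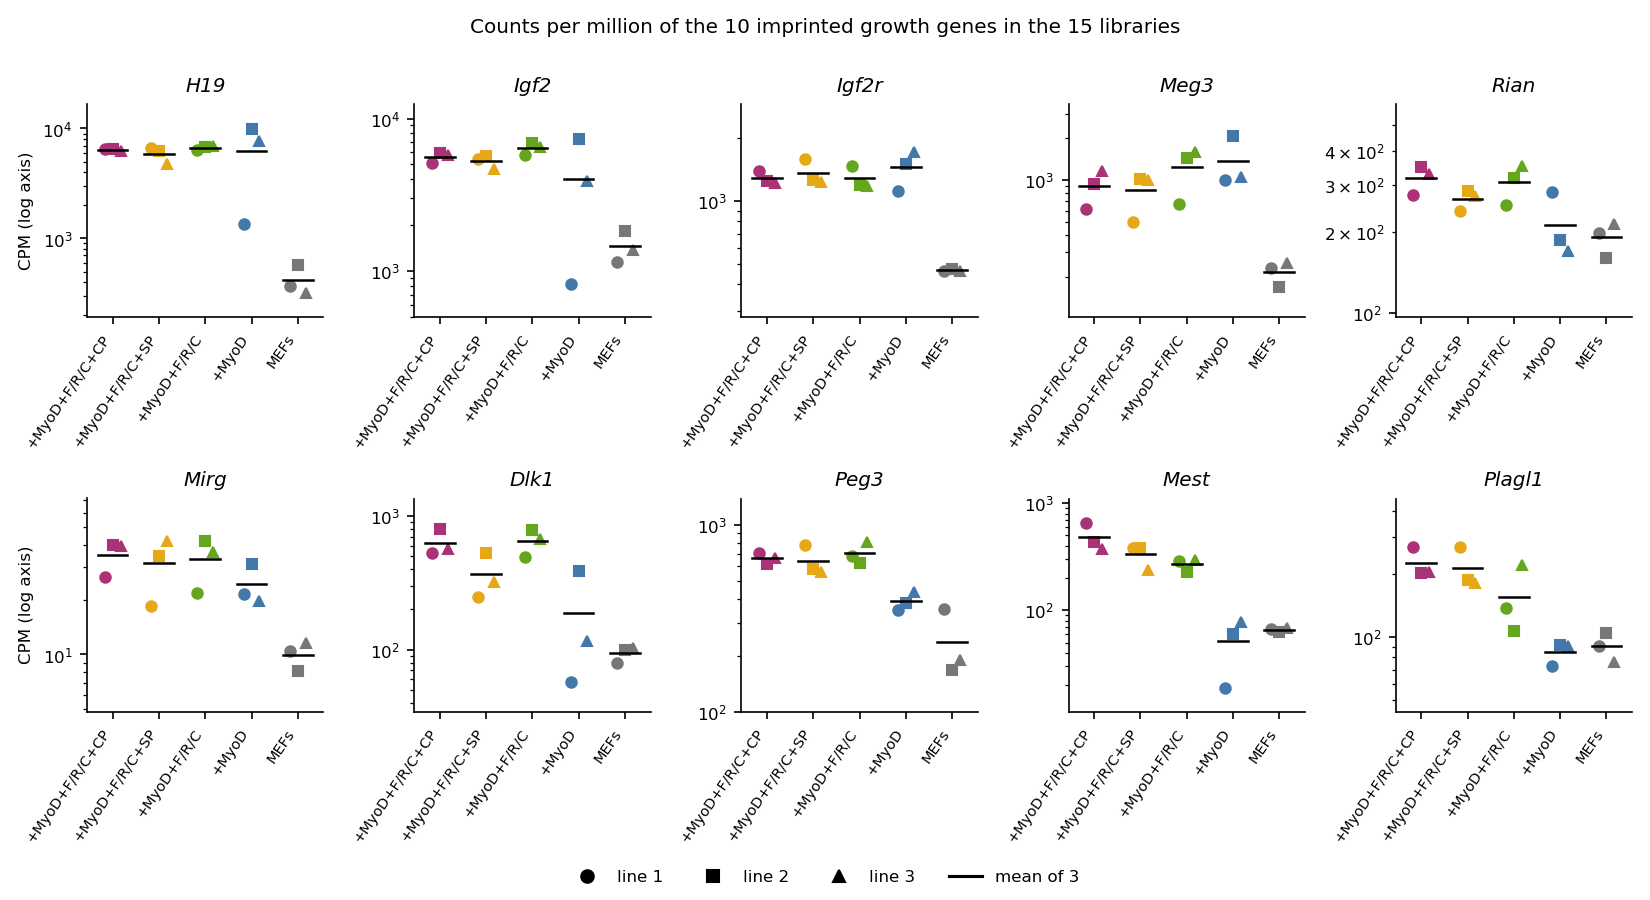
CPM on a log axis of each of the 10 genes in the 15 libraries, by condition, with 1 point per MEF line and a bar at the mean of 3 lines. All 10 genes lie higher in the 9 libraries with F/R/C than in the 3 MEF libraries. The +MyoD library of line 1 lies below the MEFs for Igf2, Dlk1, Mest and Plagl1, and within their range for Peg3.

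H19 had the highest mean TPM of the 10 genes in every condition with MyoD and came behind Igf2 in MEFs, but in +MyoD line 1 Meg3 (1443 TPM) exceeded H19 (1140 TPM). It had 6479, 6537 and 6231 CPM in +MyoD+F/R/C+CP, 6676, 6180 and 4726 CPM in +MyoD+F/R/C+SP and 6312, 6838 and 6908 CPM in +MyoD+F/R/C. In +MyoD the lines gave 1362, 9823 and 7640 CPM, and in MEFs 366, 576.1 and 319 CPM. Each of the 12 transfected libraries was thus above each MEF library, and the other conditions did not separate from each other. A gene was called when its adjusted p was at most 0.05 and its log2 fold change over 0.5 in size. H19 was called higher in all 4 comparisons with MEFs, by a log2FC of 3.90 ± 0.50 (SE) in +MyoD (adjusted p = 1.3e-05, edgeR) and of 3.99 ± 0.50 in +MyoD+F/R/C (adjusted p = 7.9e-06, edgeR). Between +MyoD+F/R/C and +MyoD the log2FC was 0.09 (95% confidence interval −0.85 to 1.04), and it was −0.39 without +MyoD line 1 (adjusted p = 0.23).

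Igf2 followed H19 with a smaller fold. It had 5107, 5909 and 5793 CPM in +MyoD+F/R/C+CP, 5455, 5683 and 4659 CPM in +MyoD+F/R/C+SP, 5758, 6892 and 6536 CPM in +MyoD+F/R/C, 827, 7323 and 3920 CPM in +MyoD, and 1139, 1835 and 1372 CPM in MEFs. The 9 libraries with F/R/C were all above the MEFs, whereas +MyoD line 1 was below them. The log2FC over MEFs was 2.14 ± 0.48 in +MyoD+F/R/C (adjusted p = 0.0014) and 1.47 ± 0.47 in +MyoD (adjusted p = 0.018). The +MyoD call was lost without MEF line 1 (log2FC 1.32, adjusted p = 0.069), without MEF line 3 (1.43, 0.056), without +MyoD line 2 (0.71, 0.18) and with only the 6 libraries compared in the fit (1.46, 0.099), and without +MyoD line 1 the log2FC was 1.95. Reads of Igf2 may also match Gm49394, which overlaps it on the same strand and held at most 28.9 CPM, and the antisense gene Igf2os held 7.77 to 44.1 CPM.

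Igf2r spread little between the MEF lines (468 ± 6.08 CPM, SD) and more between those of +MyoD (1449 ± 299.5 CPM, SD). It lay between 1177 and 1595 CPM in the 9 libraries with F/R/C, between 1123 and 1712 CPM in +MyoD and between 464 and 475 CPM in MEFs. The log2FC over MEFs was 1.63 ± 0.16 in +MyoD (adjusted p = 9.6e-07) and 1.46 ± 0.16 in +MyoD+F/R/C (adjusted p = 1.9e-06), higher in 3 of 3 lines each time.

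The ratio of H19 to Igf2 in TPM within a library was 1.18 ± 0.11 (SD) in +MyoD+F/R/C and 1.79 ± 0.42 in +MyoD, against 0.357 ± 0.073 in MEFs. Its lowest transfected value was 1.08 and its highest MEF value 0.409, so the groups did not overlap. The ratio of Igf2 to Igf2r ran from 2.87 to 20.9 in +MyoD and from 8.12 to 14.1 in MEFs, and these groups overlapped.

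Meg3 rose with MyoD alone. It had 613.5, 942.2 and 1163 CPM in +MyoD+F/R/C+CP, 494.7, 1024 and 1004 CPM in +MyoD+F/R/C+SP, 670.1, 1443 and 1602 CPM in +MyoD+F/R/C, 995.2, 2083 and 1056 CPM in +MyoD, and 230.0, 169.5 and 252.4 CPM in MEFs. All 12 transfected libraries were above the MEFs, and in all 3 conditions with F/R/C line 1 was the lowest. The log2FC over MEFs was 2.67 ± 0.39 in +MyoD (adjusted p = 4.6e-05) and 2.51 ± 0.39 in +MyoD+F/R/C (adjusted p = 5.8e-05).

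Rian and Mirg, the next transcripts along the same strand, changed less. Rian, a host of small nucleolar RNAs, had 170 to 282 CPM in +MyoD, against 160.5 to 214 CPM in MEFs, and the groups overlapped (log2FC 0.16 ± 0.19, adjusted p = 0.53). In +MyoD+F/R/C it had 252 to 352 CPM, and the log2FC over MEFs was 0.69 ± 0.19 (adjusted p = 0.0059). Mirg, which spans the largest miRNA group above, had 19.7 to 31.4 CPM in +MyoD, against 8.07 to 11.5 CPM in MEFs (log2FC 1.28 ± 0.31, adjusted p = 0.0031), and 21.7 to 42.2 CPM in +MyoD+F/R/C (log2FC over MEFs 1.74 ± 0.31, adjusted p = 0.00022). The Meg3 to Rian ratio in TPM was 4.77, 19.7 and 8.76 in +MyoD and 3.92, 7.35 and 6.75 in +MyoD+F/R/C, against 1.77, 1.55 and 1.69 in MEFs. The neighbouring RNAs therefore changed unequally, although +MyoD+F/R/C+SP line 1, at 1.85 in TPM, was close to the MEFs. In CPM that library had 494.7 for Meg3 and 239.6 for Rian, against 169.5 to 252.4 and 160.5 to 213.6 in MEFs. A ratio in TPM also depends on how kallisto divided reads between transcripts, and the part of that division was not tested.

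Dlk1, upstream of Meg3, moved apart from it in +MyoD only. It had 531.7, 793.9 and 565.9 CPM in +MyoD+F/R/C+CP, 245.6, 531.3 and 318.1 CPM in +MyoD+F/R/C+SP, 496.3, 783.9 and 669.2 CPM in +MyoD+F/R/C, 57.0, 389.3 and 115.8 CPM in +MyoD, and 79.3, 98.9 and 103.4 CPM in MEFs. Line 1 was the lowest in all 5 conditions. +MyoD overlapped the MEFs, with a log2FC of 0.998 ± 0.487 (adjusted p = 0.11) that was 1.42 without +MyoD line 1 (adjusted p = 0.0073) and −0.12 without +MyoD line 2 (adjusted p = 0.81). +MyoD+F/R/C did not overlap the MEFs (log2FC 2.79 ± 0.52, adjusted p = 0.00030). The ratio of Dlk1 to Meg3 in TPM was 0.444 ± 0.145 in +MyoD+F/R/C and 0.0908 ± 0.0394 in +MyoD, against 0.481 ± 0.156 in MEFs.

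**Figure D2:**
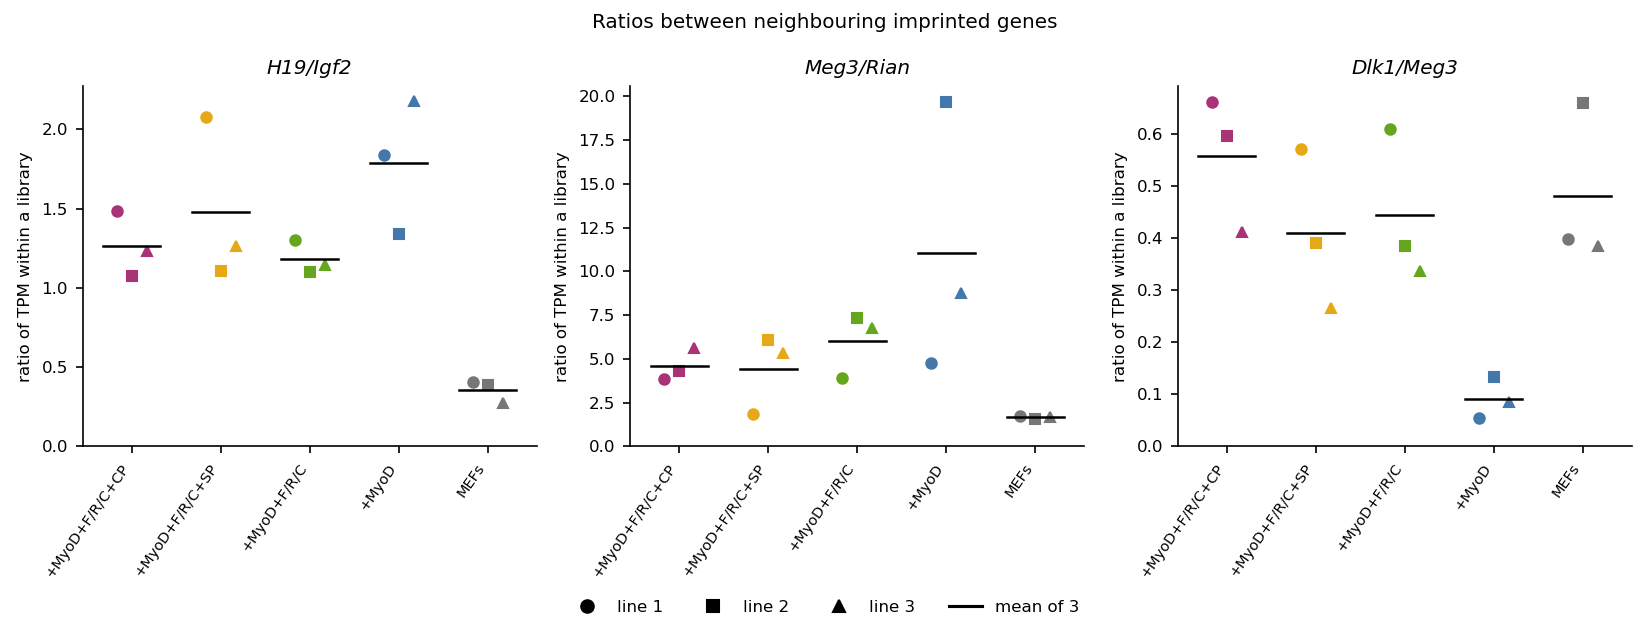
Ratios of TPM within each library, by condition, for H19 to Igf2, Meg3 to Rian and Dlk1 to Meg3, with 1 point per MEF line and a bar at the mean of 3 lines. The H19 to Igf2 ratio is 1.08 or more in every transfected library and 0.409 or less in MEFs, and the Dlk1 to Meg3 ratio is lowest in +MyoD, where no line exceeds 0.133.

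Mest separated +MyoD from the conditions with F/R/C. It had 651.1, 435.3 and 372.2 CPM in +MyoD+F/R/C+CP, 385.0, 380.3 and 240.4 CPM in +MyoD+F/R/C+SP, 290.8, 226.2 and 298.5 CPM in +MyoD+F/R/C, 18.8, 59.6 and 78.2 CPM in +MyoD, and 67.7, 62.2 and 69.0 CPM in MEFs. +MyoD and MEFs overlapped (log2FC −0.34 ± 0.36, adjusted p = 0.48, and 0.05 without +MyoD line 1), and every library with F/R/C was above both. The log2FC was 2.04 ± 0.37 for +MyoD+F/R/C over MEFs (adjusted p = 0.00027) and 2.38 ± 0.38 over +MyoD (adjusted p = 0.00036).

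Plagl1 showed the same order with smaller folds. It had 181 to 271 CPM in the 6 libraries with SP or CP, 107 to 223 CPM in +MyoD+F/R/C, 73.1 to 91.3 CPM in +MyoD and 76.1 to 105 CPM in MEFs. The log2FC of +MyoD+F/R/C over MEFs was 0.78 ± 0.24 (adjusted p = 0.011). That call was lost without MEF line 3 (0.67, adjusted p = 0.056) and without +MyoD+F/R/C line 3 (0.40, adjusted p = 0.13). Peg3 had 559 to 812 CPM with F/R/C, 349.9 to 439 CPM in +MyoD and 167 to 354 CPM in MEFs. The +MyoD and MEF ranges overlapped at MEF line 1. Its log2FC over MEFs was 0.72 ± 0.23 in +MyoD (adjusted p = 0.017) and 1.58 ± 0.23 in +MyoD+F/R/C (adjusted p = 4.0e-05). The +MyoD call was lost without MEF line 2 (0.52, adjusted p = 0.095), MEF line 3 (0.58, 0.087) or +MyoD line 3 (0.63, 0.063) and with only the 6 libraries compared (0.705, 0.076), and the log2FC was 1.13 without MEF line 1.

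Counted over the set, 6 of 10 genes were called higher in +MyoD than in MEFs (H19, Meg3, Igf2r, Igf2, Mirg and Peg3), where 22.8% of all tested genes were called higher. All 10 were higher in +MyoD+F/R/C (26.6% of all genes), in +MyoD+F/R/C+CP 10 of 10 (24.9%), and in +MyoD+F/R/C+SP 9 of 10 (24.5%). The exception was Rian with a log2FC of 0.47 ± 0.19, under the fold limit (adjusted p = 0.048). It was called without MEF line 3 (0.56) and with length-scaled counts (0.68). No member was called lower in any comparison, where 18.0% of all genes were lower in +MyoD than in MEFs, 21.6% when F/R/C was added, 20.6% with CP on top and 20.1% with SP. The 4 comparisons share the same MEF libraries, and the 10 genes were chosen with earlier results of these data known. The counts are therefore a description and not a test of the set. The median log2FC of the 10 genes was 1.14 in +MyoD and 1.89 in +MyoD+F/R/C, against 0.12 and 0.19 over all genes tested. All 3 libraries lay above all 3 MEF libraries for 4 of 10 genes in +MyoD (26.6% of all genes) and for 10 of 10 in +MyoD+F/R/C (34.3%), as also after adding CP (33.9%) or SP (31.3%). Between 4 and 7 genes were called in +MyoD when 1 library was left out, with 4 without MEF line 3 and 7 without +MyoD line 1. Without +MyoD line 1 the log2FC over MEFs was 4.37 for H19, 1.95 for Igf2, 1.78 for Igf2r, 2.85 for Meg3, 1.35 for Mirg, 0.792 for Peg3 and 1.42 for Dlk1, all called. Rian (−0.102), Mest (0.05) and Plagl1 (0.00585) were not called without it.

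Adding F/R/C to MyoD raised 4 of 10 genes, and 10.9% of all tested genes were called higher in this comparison. They were Mest (log2FC 2.38 ± 0.38), Dlk1 (1.79 ± 0.50, adjusted p = 0.017), Plagl1 (0.87 ± 0.24, adjusted p = 0.015) and Peg3 (0.85 ± 0.23, adjusted p = 0.014), each with 3 of 3 lines higher and no overlap between the groups (18.1% of all genes). These +MyoD libraries are the ones set against MEFs above. Rian had a log2FC of 0.53 ± 0.19 (adjusted p = 0.055). For H19, Igf2, Igf2r, Meg3 and Mirg the log2FC lay between −0.17 and 0.67. Leaving out 1 library gave 2 to 5 calls. Dlk1 was lost without +MyoD line 3 (1.54, adjusted p = 0.061) and without +MyoD+F/R/C line 2 (1.64, 0.052), and its log2FC was 2.91 without +MyoD line 2. Peg3 was lost without +MyoD+F/R/C line 3 (0.75, 0.056), and Plagl1 without that library (0.54, 0.091) or +MyoD line 1 (0.77, 0.053). With only the 6 libraries compared, Dlk1 (1.82, 0.10) and Plagl1 (0.898, 0.073) were lost. Without +MyoD line 1 the log2FC was 1.98 for Mest, 1.36 for Dlk1 and 0.778 for Peg3, all still called. Rian was called without +MyoD line 1 (0.78) or +MyoD+F/R/C line 1 (0.68), and Igf2 without +MyoD line 2 (1.43). With all 15 libraries Rian was also called by DESeq2 (0.549, adjusted p = 0.026) and by edgeR with no filter on low counts (0.558, adjusted p = 0.036).

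No member was called between the conditions with SP or CP and +MyoD+F/R/C. In +MyoD+F/R/C+SP against +MyoD+F/R/C, edgeR called 0 of 10 members and 0 of 19331 genes, with 0 members and 1280 genes at an unadjusted p under 0.05, and DESeq2 called 0 members and 66 genes. In +MyoD+F/R/C+CP against +MyoD+F/R/C, 0 members and 7 genes were called (0.0362%), with 2 members and 1529 genes at an unadjusted p under 0.05, and DESeq2 called 0 members and 195 genes. The members at an unadjusted p under 0.05 were Mest (log2FC 0.84, 95% confidence interval 0.07 to 1.61, adjusted p = 0.58), higher in 3 of 3 lines, and Plagl1 (0.54, 0.04 to 1.04, adjusted p = 0.58). Of the 10 genes 4 were lower in 3 of 3 lines with SP (Igf2, Meg3, Rian and Dlk1), and 2 with CP (Igf2 and Meg3). Higher in 3 of 3 lines were Igf2r alone with SP and Mest alone with CP. The share of all genes with the same direction in 3 of 3 lines was not counted, so these counts have no background to be read against. Dlk1 had a log2FC of −0.83 in +MyoD+F/R/C+SP against +MyoD+F/R/C (−1.87 to 0.20), lower in 3 of 3 lines, and 0.79 in +MyoD+F/R/C+CP against +MyoD+F/R/C+SP (−0.24 to 1.82), higher in 3 of 3 lines. Igf2r had the narrowest interval for SP (−0.25 to 0.41), and those of the others reach beyond the fold limit of 0.5 on at least one side. Between CP and SP 0 of 10 members and 38 genes were called (0.197%, all lower with CP), with 0 members and 775 genes at an unadjusted p under 0.05, and DESeq2 called 0 members and 102 genes. All 3 libraries lay above the other 3 for 0 of 10 members in +MyoD+F/R/C+SP over +MyoD+F/R/C (7.18% of all genes), for Mest alone with CP (7.94%), and for Dlk1 alone in CP over SP (5.07%). They lay below the other 3 for Igf2 alone with SP (6.99% of all genes), where its log2FC was −0.28 (−1.26 to 0.70), for 0 of 10 with CP (9.08%) and for 0 of 10 in CP over SP (6.31%).

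**Figure D3:**
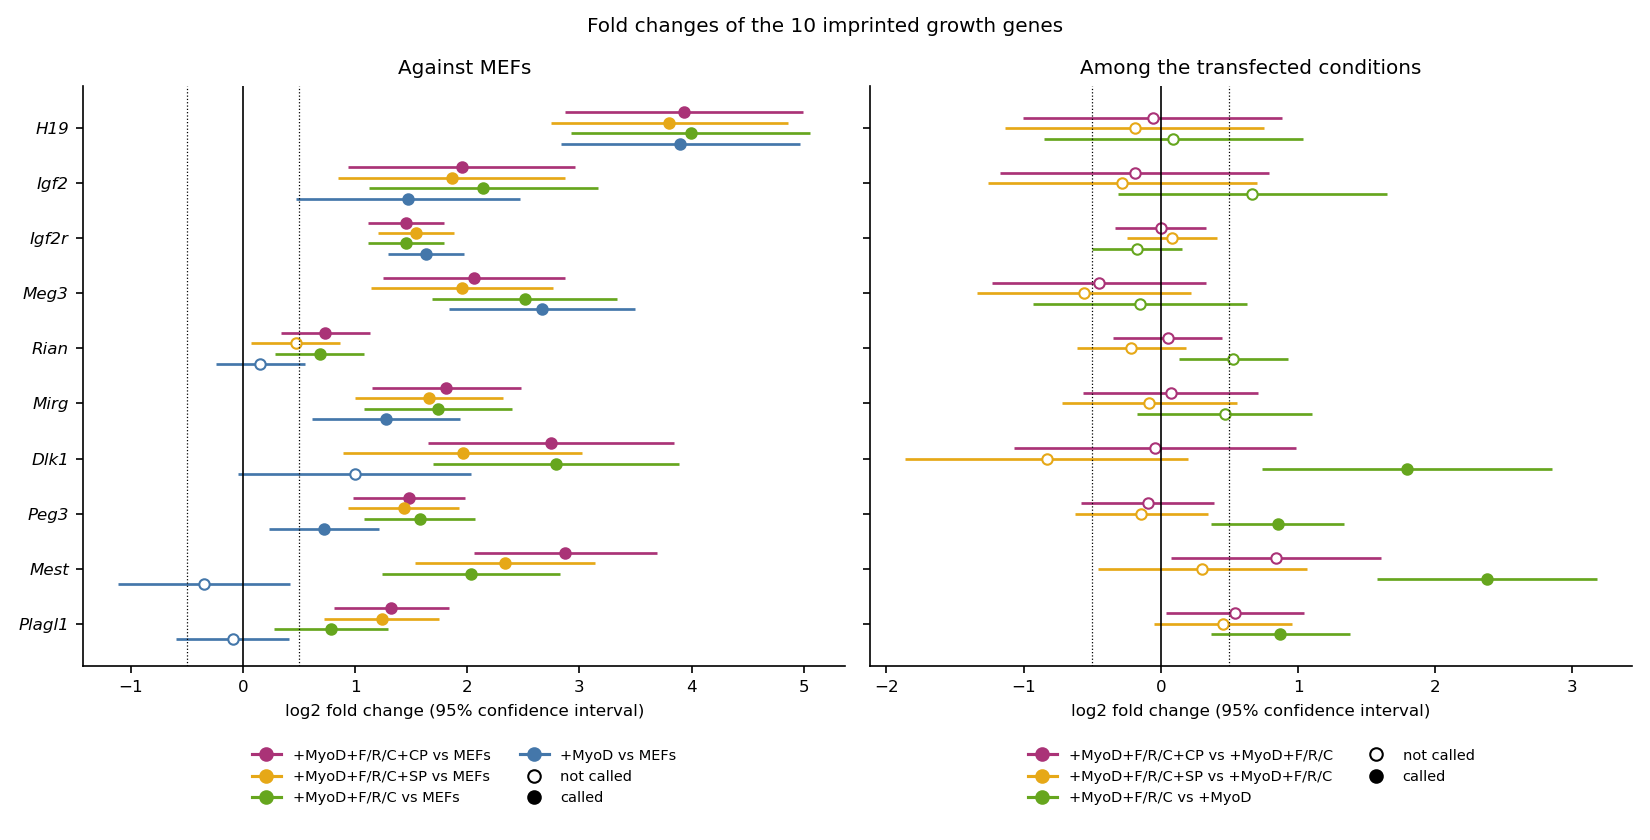
Log2 fold changes with 95% confidence intervals for the 10 genes, against MEFs in the left panel and among the transfected conditions in the right panel, with filled points for called genes and dotted lines at the fold limit of 0.5. H19 lies near 3.9 in every comparison with MEFs, and among the transfected conditions the 4 filled points are Mest, Dlk1, Plagl1 and Peg3 in +MyoD+F/R/C over +MyoD.

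The order of the genes by TPM changed between conditions. With F/R/C added, H19 (5565 ± 406 TPM) and Igf2 (4747 ± 662) overlapped at the top, followed by Meg3 (1999 ± 873), Dlk1 (803 ± 161), Rian (323 ± 69.1) and Mest (288 ± 48.7), and Mirg was last (76.2 ± 23.9). With MyoD alone the first genes were H19 (4909 ± 3340), Igf2 (3002 ± 2494) and Meg3 (2021 ± 890), whose ranges overlapped, and Mest came eighth (59.6 ± 35.6). In MEFs, Igf2 came first (861 ± 217), above H19 (307 ± 101) and Meg3 (249.7 ± 56.3), whose ranges overlapped, and Mirg came last (19.7 ± 3.51).

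Within Meg3 the annotated transcripts changed places. Meg3-208 and Meg3-211 have 5 exons each and end their first exon at the same base, but the second exon of Meg3-208 begins 40 bases further downstream, at an acceptor that no other annotated Meg3 transcript uses, whereas 7 use the upstream one. Meg3-211 also begins 54 bases earlier. The sequences across the junction, from GENCODE M21 on chr12 of GRCm38.p6, show the last 15 bases of the first exon in lower case and the first 15 of the second in capitals. The shared exon ends at 109546542, and the second exon begins at 109549519 in Meg3-208 and at 109549479 in Meg3-211.
Meg3-208: acggctctcgctcagGTTCCACGAGCTGCC
Meg3-211: acggctctcgctcagGCCTGTCGCGTCTTC
Meg3-208 had 30.7, 35.5 and 84.7 TPM in +MyoD+F/R/C+CP, 15.6, 4.9e-06 and 22.1 TPM in +MyoD+F/R/C+SP, 8.07, 82.4 and 36.8 TPM in +MyoD+F/R/C, 338.6, 898.9 and 359.9 TPM in +MyoD, and 75.7, 55.5 and 87.0 TPM in MEFs. Meg3-211 had 255.4, 415.7 and 442 TPM in +MyoD+F/R/C+CP, 104.4, 441.4 and 378.1 TPM in +MyoD+F/R/C+SP, 237.1, 584.2 and 614.6 TPM in +MyoD+F/R/C, 67.2, 110.4 and 112.8 TPM in +MyoD, and 1.65, 0 and 0 TPM in MEFs. Meg3-211 was thus the larger of the pair in every library with F/R/C, and Meg3-208 in every +MyoD and MEF library. Of their sum, Meg3-208 made up at most 16.1% in the 9 libraries with F/R/C, against 76.1 to 89.1% in +MyoD and 97.9 to 100% in MEFs. Meg3-211 is 1 of the 7 transcripts with the upstream acceptor. Together these 7 held 293 to 1494 TPM with F/R/C, 522 to 1100 TPM in +MyoD and 57.1 to 77.7 TPM in MEFs. Meg3-208 exceeded that sum in MEF line 3 alone, so its share within the pair is not the share of its acceptor. The pair together held 22.2 to 31.2% of Meg3 TPM with F/R/C and 27.8 to 33.1% without. The pair was picked after its values were seen, so no test is given, and kallisto's division of reads between overlapping transcripts is an estimate.

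**Figure D4:**
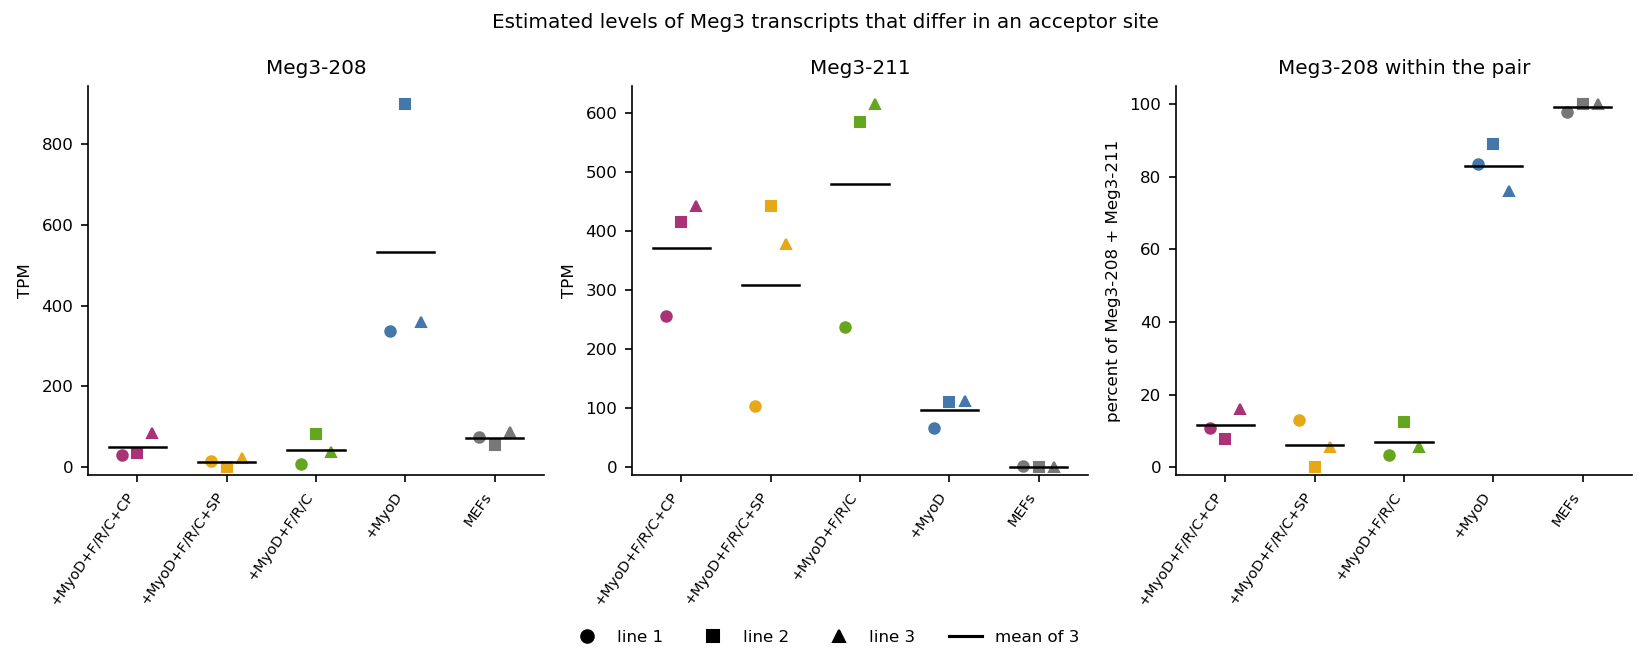
TPM of Meg3-208 and Meg3-211 in each library, and the percentage of their sum held by Meg3-208, by condition, with 1 point per MEF line and a bar at the mean of 3 lines. Meg3-208 holds 16.1% or less of the pair with F/R/C and 76.1% or more in +MyoD and MEFs.

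The share of the most abundant transcript was compared for each gene by an exact two-sided permutation test over libraries, 80 tests in all, in which 3 against 3 cannot give less than p = 0.1. Meg3-203 held 31.3 ± 2.36% of Meg3 TPM in +MyoD+F/R/C, against 21.1 ± 1.72% in MEFs (exact p = 0.1, adjusted 0.571). Rian-202 held 58.1 ± 6.22% in +MyoD, against 74.6 ± 3.71% in MEFs, and Plagl1-202 held 40.8 ± 5.996% in +MyoD+F/R/C, against 69.0 ± 8.05% in MEFs (exact p = 0.1 each). None of the 80 passed after adjustment, and with that smallest p none could have, so they cannot decide whether a share changed. The pairing of libraries by line was not used in them. H19-202, Igf2r-201 and Peg3-201 held on average 84.5% or more of their genes in every condition. The split was uneven in other genes. Mest-210 was at 0.455 TPM or below in the 4 transfected libraries of line 2 and at 3.72 to 229 TPM in the other 8, and Igf2-207 was listed at 0 in +MyoD+F/R/C+SP line 1 and at 149 to 1465 TPM elsewhere. Gene sums were therefore used for the comparisons above. Sums in TPM still depend on the split, because each transcript is divided by its own length. The ratios, shares and order in TPM have that limit. In +MyoD+F/R/C+SP, Igf2 had 5455 CPM and 2252 TPM in line 1, against 5683 CPM and 4540 TPM in line 2.

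The genes whose log2 CPM followed each member most closely were taken over the 15 libraries, as a description, since these libraries share conditions and lines. They were Lama4 for H19 (Pearson r = 0.985), Egfl6 for Igf2 (0.98), Frmpd3 for Igf2r (0.985), Speg for Meg3 (0.972), Asb12 for Rian (0.927), Tmem205 for Mirg (0.962), Rnf165 for Dlk1 (0.959), Pde5a for Peg3 (0.979), 1520401A03Rik for Mest (0.959) and Meiob for Plagl1 (0.956). Speg, a kinase of striated muscle, and Lama4, a laminin chain of basement membranes, are among them. Between members, H19 and Igf2r had r = 0.945, Dlk1 and Igf2 0.906, and Mest and Plagl1 0.906.

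The E-box CAGCTG is a hexamer bound by MYOD that reads the same on both strands. It was searched in the 250 bases before each start in RefSeq on GRCm38.p6. That set held 15 windows for 9 of the 10 genes, and no window for H19, so H19 was not searched. The hexamer was present in 1 of the 15, a Mest window, against 4271 of all 32851 windows. Binding was not measured. The Mest match lies at −135 from the start, at chr6:30733361-30733386 on the plus strand, with the hexamer in capitals.
Mest: aggggaaggaCAGCTGaggaagatgt

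Of 53 other imprinted genes listed, 52 were in the data and 51 were tested. In +MyoD 16 were higher and 7 lower than in MEFs, against 22.8% and 18.0% of all genes, with a median log2FC of 0.35. Those with the smallest p were Zim1, the neighbour of Peg3 (3.15 ± 0.24), Cd81, a tetraspanin (1.42 ± 0.13), Begain, beside Dlk1 (2.05 ± 0.31), and Slc38a4, an amino acid transporter (−1.73 ± 0.20). With F/R/C 27 were higher in +MyoD+F/R/C and 7 lower than in MEFs (26.6% and 21.6% of all genes), with a median log2FC of 1.12. They included Zim1 (4.14 ± 0.25), Ppp1r9a (2.65 ± 0.20), Rasgrf1, a Ras exchange factor (6.34 ± 0.50), and Dio3, the deiodinase at the far end of the Dlk1-Dio3 domain (6.004 ± 0.569). Rasgrf1 had 9.51 ± 4.03 CPM in +MyoD+F/R/C, against 0.115 ± 0.060 CPM in MEFs, where it was near 0.

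Of the 51, 20 were higher and 4 lower in +MyoD+F/R/C than in +MyoD (10.9% and 8.39% of all genes). The smallest p values belonged to Rasgrf1 (log2FC 5.62 ± 0.48), Magel2, a ubiquitin ligase regulator (4.44 ± 0.39), Ppp1r9a (2.16 ± 0.20) and Peg10, a gene derived from a retrotransposon (3.60 ± 0.36, adjusted p = 9e-06). Peg10 had 815 ± 86.0 CPM in +MyoD+F/R/C, against 67.3 ± 37.9 CPM in +MyoD. No gene of this list was called between the conditions with SP or CP and +MyoD+F/R/C.

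Of 16 tested genes of the IGF axis besides Igf2 and Igf2r, 8 were higher and 3 lower in +MyoD than in MEFs, and 9 were higher and 4 lower in +MyoD+F/R/C than in MEFs, beside 22.8% higher and 18.0% lower of all genes for +MyoD and 26.6% and 21.6% for +MyoD+F/R/C. Igfbp3, an IGF binding protein, had a log2FC over MEFs of 5.03 ± 0.53 in +MyoD, and Igfbp2 and Igfbp7 had 2.91 ± 0.35 and 2.42 ± 0.21. Pappa, a protease that cleaves IGF binding proteins, had 3.11 ± 0.31. Igfbp5 in +MyoD+F/R/C had 4.76 ± 0.34, Igf1, the other IGF ligand, 4.54 ± 0.38, Pappa2 6.36 ± 0.57 and Igf2bp3, an RNA-binding protein of Igf2 mRNA, −1.65 ± 0.12. The 2 ligands therefore were both higher. Igf1 had 63.8 ± 8.28 CPM in +MyoD+F/R/C and 17.6 ± 8.58 CPM in +MyoD, against 2.74 ± 0.84 CPM in MEFs. Between +MyoD+F/R/C and +MyoD 4 of the 16 were higher and 3 lower (10.9% and 8.39% of all genes), among them Igfbp5 (2.41 ± 0.30), Igf1 (1.85 ± 0.33), Pappa2 (2.55 ± 0.45) and Igf2bp3 (−0.81 ± 0.12).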

How the data were processed

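The authors sequenced stranded poly-A libraries, cleaned reads with fastp 0.20.0 and quantified them with kallisto 0.46.1 against GRCm38.p6; whether strand was used in quantification is not given in the sources used here. The deposited files hold estimated counts per transcript, which are not normalized, and the TPM that the authors' kallisto run gives, a level per effective length; each library was deposited on its own.

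Transcripts were matched to GENCODE M21 (121104 of 121843, the rest holding 0.236 to 0.327% of counts), and counts were summed per gene and rounded. One edgeR 4.0.16 quasi-likelihood fit of all 15 libraries (R 4.3.3, TMM, minimum count 10) gave fold changes, and p-values were adjusted by Benjamini-Hochberg over 19331 genes. All adjusted p-values come from it unless another tool is named. Leave-one-out fits with 2 libraries in a condition share the spread of the others. Transcript shares were tested with scipy 1.17.1. The tests were tried on simulated data. Markers and lists were written from general knowledge. The members and lists were chosen with earlier results of these data known. All members are described, with transcripts of at least 10% of a gene's TPM and the genes most like each member. Of other lists, counts, medians and up to 4 called genes with the smallest p are given, and Dnmt3a besides.

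The same lines stand behind each condition, so the replicate number pairs libraries. After subtracting condition means, libraries of one line correlated at 0.074 on average (30 pairs), those of different lines at −0.037 (60 pairs), and 15 of 15 were closest to their own line. Alternatives were the line as a block, DESeq2 1.42.0, no filter, length-scaled counts, only the 6 libraries compared, and each library left out. Replicates were no duplicates (chi-square per degree of freedom at least 16.9). Depth was 29393872 to 41885769 counts.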

Additional observations from a re-analysis of the deposited data

How the results depend on the processing

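Of the 8 comparisons, the number of members called was within 1.5 times of the reported count under all alternatives except for +MyoD+F/R/C against +MyoD, where 2 instead of 4 were called with only the 6 libraries compared (2210 instead of 3735 of all genes) and 2 to 5 with 1 library left out. In +MyoD against MEFs 4 instead of 6 were called with only the 6 libraries, without Igf2 and Peg3. With the line as replicate block the members called numbered 6, 10, 9, 10, 4, 0, 0 and 0, as without it. The block moved the count of all genes by over 1.5 times only for +MyoD+F/R/C+CP against +MyoD+F/R/C, with 37 called against 7. That count was also 195 with DESeq2, 47 with no filter, 2 with length-scaled counts, 91 with only the 6 libraries and 0 to 4 with 1 library left out. For +MyoD+F/R/C+CP against +MyoD+F/R/C+SP it was 102 with DESeq2, 71 with only the 6 libraries and 14 to 31 with 1 left out, against 38, and for +MyoD+F/R/C+SP against +MyoD+F/R/C 66 with DESeq2 and 3 with only the 6 libraries, against 0. The causes were not tested.

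No called fold change of a member turned its sign. Of those not called, 3 genes' values turned it in settings other than leaving out a library. Plagl1 in +MyoD against MEFs had 0.29 with length-scaled counts, and in +MyoD+F/R/C+CP against +MyoD+F/R/C Igf2r had 0.000692 with the block and 0.00853 with length-scaled counts, and Rian −0.0543 with the latter setting. With 1 library left out, log2FC ranges that crossed 0 were, for +MyoD against MEFs, −0.122 to 1.42 (Dlk1), −0.76 to 0.05 (Mest), −0.201 to 0.0277 (Plagl1) and −0.102 to 0.292 (Rian). For +MyoD+F/R/C against +MyoD they were −0.385 to 0.571 (H19) and −0.369 to 0.27 (Meg3), and for +MyoD+F/R/C+SP against +MyoD+F/R/C −0.055 to 0.188 (Igf2r) and −0.349 to 0.182 (Mirg). For +MyoD+F/R/C+CP against +MyoD+F/R/C they were −0.0594 to 0.105 (Igf2r), −0.0816 to 0.165 (Rian), −0.164 to 0.274 (Mirg), −0.247 to 0.114 (Dlk1) and −0.175 to 0.0241 (Peg3). For +MyoD+F/R/C+CP against +MyoD+F/R/C+SP they were −0.146 to 0.0481 (Igf2r), −0.156 to 0.334 (Meg3), −0.113 to 0.418 (Mirg), −0.0346 to 0.215 (Peg3) and −0.0521 to 0.299 (Plagl1). No fit at another depth was run.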

Other observations

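Factors that keep or erase methylation at imprinted loci were measured in the same libraries, and 16 of 17 listed genes were tested. In +MyoD 2 were higher and 6 lower than in MEFs, against 22.8% and 18.0% of all genes. Dnmt1, the maintenance DNA methyltransferase, had 60.1 ± 5.06 CPM in +MyoD, against 248 ± 12.5 CPM in MEFs (log2FC −2.05 ± 0.17). Uhrf1, which brings DNMT1 to replicated DNA, had 14.5 ± 2.997 CPM in +MyoD, against 159 ± 8.09 CPM in MEFs (−3.45 ± 0.31), and Smchd1, a silencing factor of some imprinted clusters, had a log2FC of −1.56 ± 0.13. Tet2, which oxidises methylcytosine, was higher (1.83 ± 0.24). The other gene called higher was Dnmt3a, like Dnmt1 a DNA methyltransferase. It had 72.6 ± 6.05 CPM in +MyoD, against 33.6 ± 5.93 CPM in MEFs (1.11 ± 0.18). The 8 proliferation genes were all lower in +MyoD than in MEFs too, and Dnmt1 and Uhrf1 are known to be expressed with the cell cycle. Their part in these values was not tested.

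Of the 16, 4 were higher and 6 lower in +MyoD+F/R/C than in MEFs (26.6% and 21.6% of all genes), and 3 were higher and 0 lower than in +MyoD (10.9% and 8.39%). Those 3 were Setdb1, a histone methyltransferase (log2FC 0.75 ± 0.14), Tet1 (1.23 ± 0.29) and Uhrf1 (1.03 ± 0.28). Of the 8 proliferation genes 7 were also higher in +MyoD+F/R/C than in +MyoD. DNA methylation itself was not measured.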
